A study of Mus musculus with 10 samples.

Results

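Oxidative phosphorylation genes were examined in cultured mouse cortical neurons labelled wild type or Fmr1-KO. The genes were chosen by symbol alone, as every row of the rate table that begins with Nduf, Uqcr, Atp5 or Cox4 to Cox8, and no rate is used in the rule. The rule found 50 of 8590 genes. Of these, 33 belong to complex I (6 catalytic core subunits, 21 accessory subunits and 6 assembly factors, the Ndufaf genes), 4 to complex III, 5 to complex IV and 8 to complex V. GENCODE M21 holds 89 protein-coding genes whose symbols fit the rule; the other 39 were not analysed here, among them Cox4i1 and Cox5a of complex IV and the catalytic ATP synthase subunits Atp5a1 and Atp5b.

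The series compared wild-type neurons with neurons labelled Fmr1-KO, both of the strain given as FVB.129P2-Pde6b+ Tyrc-ch/AntJ. Fmr1 encodes FMRP, an RNA-binding protein whose gene is silenced in fragile X syndrome. Cells came from cortices at embryonic day 18, were grown for 14 days in vitro and received 200 µM 5-ethynyluridine (5-EU), a uridine analogue incorporated into new RNA, for 20 or 60 min. Each genotype had 1 library of 20 min and 1 of 60 min, along with 2 inputs and 1 pull-down of unlabelled RNA, and every rate below belongs to 1 of the 4 labelled libraries. The labels give no further detail of the knockout allele and do not say whether libraries came from separate cultures or animals.

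Oxidative phosphorylation passes electrons from NADH and succinate to oxygen through complexes I to IV of the inner mitochondrial membrane. The proton gradient built by complexes I, III and IV drives ATP synthesis by complex V. Most subunits are encoded in the nucleus, translated in the cytosol and imported, so their supply depends on nuclear transcription and on the lifetime of cytosolic mRNA. Neurons rely on this pathway for most of their ATP, and the mRNAs of many of its subunits are known as abundant and long-lived.

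A synthesis rate is the amount of RNA made per unit of time, a processing rate describes the turnover of unspliced precursor, and a degradation rate is the share of mature RNA lost per unit of time. The time unit is not stated, so rates are printed in the units of the deposited table. The read depth behind a rate is unknown, and precision was judged from the difference between the labelling times. The p-values below therefore measure only the spread between the 20 and 60 min libraries of a genotype, which may be technical. In wild type those estimates are not independent either: synthesis divided by degradation rate gave equal values at 20 and 60 min, within 0.001 log2 units, in 42 of 44 members (all but Ndufa8 and Ndufaf7) and in 93.4% of all genes. In the knockout it was equal in 0 of 33 members and in 0.271% of all genes. Synthesis divided by processing rate was equal at both times in 100% of genes for wild type, against 5.81% for the knockout. The rates of the genotypes thus differ in how their labelling times are tied together, whether they were derived in the same way is not given in the sources used here, and the part of this in every difference between genotypes below was not tested.

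Fmr1 itself was checked first. Its degradation rate was 0.0774 and 0.0672 in wild type (20 and 60 min) against 2.58 and 2.66 in the knockout. Its synthesis rate was not lower in the libraries labelled Fmr1-KO, at 0.810 and 0.692 against 2.06 and 1.56, and synthesis divided by degradation rate was 10.5 and 10.3 against 0.800 and 0.586. RNA was taken from whole cultures, so a change in cell makeup and a change per cell cannot be told apart. Markers could check the cell type only in part: 2 of 9 neuronal markers (Rbfox3 and Gad2), 3 of 6 astrocyte, 4 of 6 oligodendrocyte lineage, 0 of 4 microglial and 0 of 2 endothelial markers were in the table. The 1 neuronal, 1 astrocyte and 1 oligodendrocyte lineage marker with all 4 degradation rates had log2 differences of 1.70, 0.57 and -0.37, none with an adjusted p under 0.05 by limma (the neuronal marker passed with labelling time as a block), and the part of other cell types in the results was not tested.

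Rates of the members were more often listed in wild type than in the knockout. A degradation rate was listed for 45 of the 50 members in each wild-type library, for 38 in the knockout 20 min library and for 33 in the knockout 60 min library. All 4 libraries had one for 31 members. Of the 44 members measured for degradation at both wild-type times, 9 (20.5%) had no value in either knockout library, close to the 19.5% of all genes. These 9 were Ndufs1, the large iron-sulfur subunit of the complex I core, the accessory subunits Ndufa2, Ndufb4, Ndufb5 and Ndufb6, the assembly factors Ndufaf4 and Ndufaf7, the core protein Uqcrc2 of complex III, and Atp5s of complex V. The reverse held for 2 members, Cox7c and Ndufa1, which had degradation rates of 0.0111 and 0.0190 (Cox7c) and 0.112 and 0.0776 (Ndufa1) in the knockout and none in wild type.

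The remaining members had partial values. Ndufb8 and Ndufb11 had no degradation rate in any library, Ndufaf2 had one only in wild type at 60 min (0.0728), and Ndufaf3 only at 20 min (0.211 in wild type, 0.262 in the knockout). Cox5b, Atp5l, Ndufa5 and Ndufa7 lacked the knockout 60 min value. The knockout 20 min degradation rate of Ndufa7 was 0.000918 against 0.177 and 0.0777 in wild type, and that of Ndufa5 was 0.00140 against 0.141 and 0.0787. These were the lowest degradation rates of any member in any library, and no second knockout library bears on them.

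In wild type the median member was made faster and lost more slowly than the median gene. Their median synthesis rate was 1.93 at 20 min and 1.37 at 60 min, against 1.06 and 1.02 for all genes, and lay at the 76.3 and 62.0 percentile of all genes. Their median degradation rate was 0.0902 and 0.0669, against 0.111 at both times for all genes, at the 37.4 and 28.6 percentile. Of the 45 members listed at 60 min in wild type, 4 had a degradation rate above the median of all genes. Processing rates were near those of other genes, with medians of 7.69 and 6.25 against 7.37 and 7.25.

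The members differed widely among themselves in wild type. The highest mean synthesis rate was that of Atp5e, the epsilon subunit of the ATP synthase central stalk, at 6.74 and 3.59 (5.16 ± 2.22, SD, n = 2), and the lowest that of Atp5s, a coupling factor of complex V, at 0.103 and 0.257 (0.180 ± 0.109). Atp5s also had the lowest mean processing rate, 0.427 and 1.06, while Uqcrc2 had the highest, 22.5 and 38.7. The lowest mean degradation rate was that of Atp5h, subunit d of the ATP synthase peripheral stalk, at 0.0377 and 0.0334, and the highest that of the assembly factor Ndufaf4, at 0.214 and 0.255. In Atp5h and Ndufaf4 the labelling times lay close together, while in Atp5e, Atp5s and Uqcrc2 they lay well apart.

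Labelling time separated the members' rates more often in one direction than those of other genes, a difference that was not tested. In wild type 31 of 44 members had a higher degradation rate at 20 than at 60 min (70.5%, against 52% of all genes), with a median difference of 0.52 log2 units against 0.0474. In the knockout this held for 28 of 33 members (84.8%, against 55.8% of all genes), with a median difference of 0.31. Synthesis rates showed the same counts, 31 of 44 and 28 of 33, with median differences of 0.52 and 0.78. In wild type this only repeats the degradation result, because the ratio of the rates was equal at both times in 42 of 44 members. Across the 31 members with all degradation rates, the 20 and 60 min libraries ranked the members alike in the knockout (Spearman rho 0.953) and less alike in wild type (rho 0.241), against 0.871 and 0.731 over all genes, as a description over genes that share libraries.

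The genes share a compact structure. By GENCODE M21, the 50 members had a median span of 7934 bases, 4 exons, a coding length of 435 bases and a 3′ UTR of 159 bases, against 27524 bases, 9 exons, 1455 bases and 1107 bases over the 8319 genes of the table with a protein-coding transcript. Spans ran from 1898 bases (Ndufaf3) to 155909 bases (Ndufaf2). A protein-coding gene on the opposite strand, starting head to head within 1000 bases, was found for 13 members (26%) and for 10.7% of all genes; these neighbours include Kctd2 for Atp5h and Lrrc41 for Uqcrh. Whether the counting used strand is not given in the sources used here, so reads near such starts cannot be assigned with certainty, and how reads that match more than 1 place were counted is not given either.

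Promoters of respiratory genes are known to hold sites of nuclear respiratory factor 1 (NRF1) and of the ETS factor GABPA. Windows of 250 bases before to 50 after the RefSeq start (GRCm38.p6) were found for 45 members, 2 of them through an older symbol, and searched on both strands. The NRF1 core (GCATGCGC, which overlaps its reverse complement in GCGCATGCGC and was counted once per gene) was in the windows of 7 members (15.6%), against 6.66% of the table's genes and 3.05% of all genes with a window. The ETS core CCGGAAG was in 9 (20%, against 21.9% and 9.93%), the YY1 core ATGGCGG in 9 (20%, against 10.8% and 4.69%) and the SP1 core GGGCGG in 26 (57.8%, against 73% and 38.2%). The matches are letters in a window and show no binding.

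The sites below are shown because they let members whose degradation rate rose in the knockout be set beside members with the same motif that did not pass the test. Each is 30 bases on the strand of the gene, read from RefSeq (GRCm38.p6), with the motif in capitals. Atp5g2, Atp5h and Ndufs3 are among the genes called for degradation rate below, and Ndufa11, Ndufaf1 and Uqcrh are not.
Atp5g2, NRF1 core, chr15:102671070-102671099, minus strand: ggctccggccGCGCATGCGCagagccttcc
Ndufa11, NRF1 core, chr17:56717692-56717721, plus strand: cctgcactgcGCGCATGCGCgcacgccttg
Atp5h, ETS core, chr11:115419940-115419969, minus strand: ccaaggagagaaCTTCCGGcaactctcttc
Ndufs3, ETS core, chr2:90904731-90904760, minus strand: ccccgcgtccgcCCGGAAGaagagtcactg
Ndufaf1, ETS core, chr2:119662835-119662864, minus strand: gcgggaccacaaCCGGAAGcgtggcgaacc
Uqcrh, ETS core, chr4:116075063-116075092, minus strand: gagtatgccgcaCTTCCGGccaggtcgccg
The motif began 42 bases before the RefSeq start in Atp5g2, 60 in Ndufa11, 38 in Atp5h, 27 in Ndufs3, 18 in Ndufaf1 and 10 in Uqcrh. By the GENCODE M21 gene bounds the motifs of Atp5g2, Atp5h and Ndufs3 lie inside the gene. Those of Ndufa11, Ndufaf1 and Uqcrh lie before it, so the place of the motif depends on the annotation. For 34 of the 45 members, bases after the RefSeq start were found near the start of the GENCODE transcript. Among members with a window, the NRF1 core was in 1 of 9 called and 4 of 20 not called genes, the ETS core in 2 of 9 and 5 of 20, the YY1 core in 0 of 9 and 4 of 20, and the SP1 core in 7 of 9 and 9 of 20.

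Degradation rates of many members were higher in the knockout. Of the 31 members with all 4 rates, 10 rose with an adjusted p under 0.05 by limma and 0 fell; across all 5716 genes tested, 23.1% passed, and 20.5% passed as higher. The 10 were Ndufs3, Ndufv2, Ndufa10, Ndufa12 and Ndufab1 of complex I, Uqcrq of complex III, Cox7a2l and Cox7b of complex IV, and Atp5g2 and Atp5h of complex V. The median log2 change of the members was 1.41 (1.17 at 20 min and 1.11 at 60 min), against 0.65 for all genes (0.73 and 0.58). The value 1.41 is that of Ndufb3 (SE 0.952), with 0.0161 and 0.0997 against 0.0950 and 0.119, and its genotypes overlapped. The nearest members were Atp5g1 at 1.14 and Ndufa3 at 1.63. In the authors' deposited table Ndufb3 had -0.37. With the 60 min library of wild type left out, the medians of the members and of all genes were 0.83 and 0.69. That fit sets knockout libraries of both times against the 20 min wild-type one, so genotype and labelling time are mixed in it. At 20 min alone the medians were 1.17 and 0.73. In 22 members the rate was higher at both labelling times, in 3 lower at both, and in 6 the times differed in sign; over all 5716 genes these counts were 3551, 1500 and 665. Both knockout rates lay above both wild-type rates in 18 members (all genes 52.6%) and below in 3 (all genes 16.5%). An exact permutation test of 2 libraries against 2 cannot give a p below 0.333 for any single gene.

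**Figure D1:**
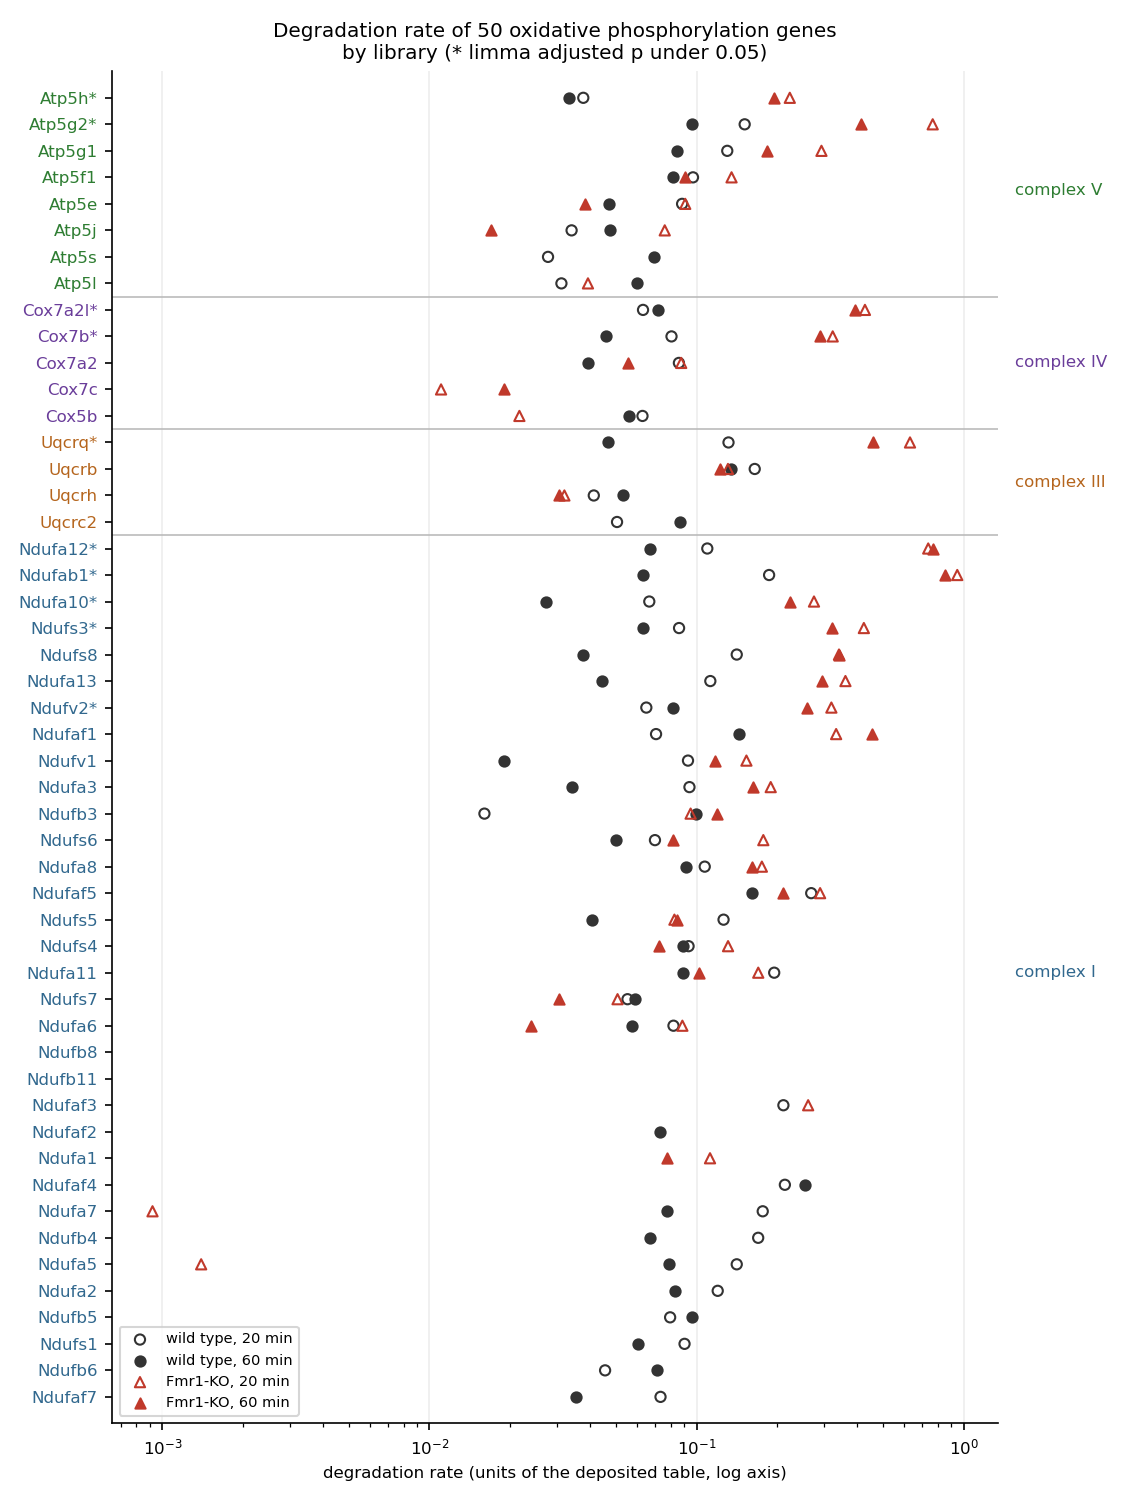
Degradation rate (log axis, units of the deposited table) of the 50 members, grouped by complex and ordered within each complex by change, with circles for wild type and triangles for Fmr1-KO, open at 20 min and filled at 60 min; an asterisk marks a limma adjusted p under 0.05. In the 10 called genes both triangles lie to the right of both circles, as they do in Ndufs8 and Ndufa13, while rows such as Ndufa7, Ndufa5 and Cox7c lack a rate in 1 or more libraries.

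The degradation rates of all genes shifted in the same direction, and the calls depended on whether that shift was kept. Setting the median log2 rate of every library to the same value removed a shift of 0.86 between genotypes. The 10 called genes then had log2 changes of 1.12 to 2.27. The members' median was then 0.55, against -0.20 for all genes, and 18 of 31 members were above 0 in place of 24. By limma 0 members passed (1.61% of all genes passed). An unadjusted p under 0.05 by limma was found for 13 of the 31 members and 2085 of the 5716 genes. After quantile normalization 2 members passed, Cox7a2l and Ndufa12 (10.4% of all genes). With labelling time as a block 15 members passed, all higher (48% of all genes passed, 38.2% as higher). They were the same 10, with Atp5g1, Ndufa3, Ndufa13, Ndufaf1 and Ndufs8 added. With the block and centring 12 passed, 9 higher and 3 lower (36.2%); the 9 were the same genes as without either step, all but Ndufv2. The 3 that passed as lower were Ndufs7, Uqcrb and Uqcrh. The authors' deposited table tested 34 members, of which 14 passed, all higher (36.3% of all genes in that table), with a median log2 change of 0.90. When 1 library was left out, which leaves 1 in a genotype, whether the 10 called genes passed depended on which library it was. Their changes all stayed above 0. The members' median was 0.83 without the 60 min wild-type library, against 0.69 for all genes, and 1.59 without the 60 min knockout one, against 0.74.

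Complex I, which takes electrons from NADH, had 5 of 19 tested members called, near the 23.1% of all genes, and a median log2 change of 1.63 against 0.65. In its catalytic core, which carries the flavin and the iron-sulfur clusters, 2 of 5 tested members were called as higher, where 20.5% of all genes were. Ndufs3 (chromosome 2, 90894634 to 90904827) had degradation rates of 0.0860 and 0.0633 without the knockout and of 0.423 and 0.320 with it (log2 change 2.32 with SE 0.371, limma adjusted p = 0.0264). Ndufv2, an iron-sulfur subunit beside the flavin site (chromosome 17, 66078638 to 66101559), had 0.0649 and 0.0816 against 0.320 and 0.258 (log2 change 1.98 with SE 0.347, adjusted p = 0.0287 by limma). In both genes every knockout value exceeded every wild-type value by more than the labelling times differed. The core subunits Ndufs8 (0.141 and 0.0377 against 0.341 and 0.341) and Ndufv1 (0.0929 and 0.0191 against 0.154 and 0.117) did not overlap between genotypes but did not pass, with limma adjusted p of 0.0878 and 0.205 (0.0367 and 0.0679 with the block). Ndufs7 lay the other way, at 0.0551 and 0.0587 against 0.0506 and 0.0305 (log2 change -0.53, adjusted p = 0.357 by limma).

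Among the 12 tested accessory subunits of complex I, 3 were called as higher and 0 as lower, near the 20.5% of all genes called as higher. Ndufa12, a subunit of the peripheral arm (chromosome 10, 94198720 to 94221443), had the largest change among the members with all 4 rates, from 0.110 and 0.0672 to 0.737 and 0.766 (log2 change 3.13 with SE 0.393, limma adjusted p = 0.0235). Ndufab1, the mitochondrial acyl carrier protein (chromosome 7, 122085403 to 122101886), went from 0.187 and 0.0633 to 0.946 and 0.854 (log2 change 3.05 with SE 0.616, limma adjusted p = 0.0368). Ndufab1 had the highest degradation rate of any member in both knockout libraries. Ndufa10 (chromosome 1, 92439010 to 92473860) went from 0.0665 and 0.0273 to 0.275 and 0.224 (log2 change 2.54 with SE 0.545, limma adjusted p = 0.0411). Ndufa13, an accessory subunit also known as GRIM-19, just missed the threshold with 0.113 and 0.0441 against 0.361 and 0.294 (adjusted p = 0.0560 by limma, and 0.0188 with the block). At the other end of the accessory subunits, Ndufa6 had 0.0820 and 0.0572 against 0.0885 and 0.0241 (log2 change -0.57, limma adjusted p = 0.584) and its genotypes overlapped.

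Of the 6 complex I assembly factors, 2 had all 4 degradation rates and 0 passed without the block. Ndufaf1, a member of the complex that builds the membrane arm, had 0.0705 and 0.144 in wild type against 0.333 and 0.455, just outside the threshold (log2 change 1.95, SE 0.492, limma adjusted p = 0.0549, and 0.0164 with the block). Ndufaf5, which modifies Ndufs7, had 0.269 and 0.161 against 0.290 and 0.212, and the genotypes overlapped.

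Complex III, which passes electrons from ubiquinol to cytochrome c, split. Uqcrq, a small subunit without cofactors (chromosome 11, 53427922 to 53430831), rose from 0.132 and 0.0464 to 0.630 and 0.458 (log2 change 2.78 with SE 0.617, limma adjusted p = 0.0441). Uqcrh, the hinge protein that contacts cytochrome c1, had 0.0412 and 0.0530 against 0.0320 and 0.0307 (log2 change -0.58, SE 0.335, limma adjusted p = 0.256), the most negative change among the 31 members with all 4 rates. Uqcrb had 0.165 and 0.134 against 0.131 and 0.123 (log2 change -0.23, limma adjusted p = 0.621). Both knockout values of Uqcrh and of Uqcrb lay below both wild-type values, and together with Ndufs7 these were the 3 members of that kind.

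In complex IV, cytochrome c oxidase, 2 of the 3 tested members were called as higher, where 20.5% of all genes were. Cox7a2l, known for joining complexes III and IV into supercomplexes (chromosome 17, 83501918 to 83517330), went from 0.0630 and 0.0715 to 0.427 and 0.392 (log2 change 2.61 with SE 0.320, limma adjusted p = 0.0235). Cox7b (chromosome X, 106015700 to 106022450) went from 0.0806 and 0.0460 to 0.323 and 0.290 (log2 change 2.33 with SE 0.418, limma adjusted p = 0.0297). Cox7a2, the paralogue of Cox7a2l that is a subunit of the enzyme itself, had 0.0859 and 0.0393 against 0.0876 and 0.0555 (log2 change 0.26, limma adjusted p = 0.737), so the ranges of the pair overlapped in wild type and lay far apart in the knockout. The difference between the paralogues was not tested. Cox5b had 0.0627 and 0.0556 in wild type and 0.0217 at 20 min in the knockout, the only knockout value listed.

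In complex V, the ATP synthase, 2 of the 6 tested members were called as higher, where 20.5% of all genes were. Atp5h (chromosome 11, 115415689 to 115419962) went from 0.0377 and 0.0334 to 0.223 and 0.195 (log2 change 2.56 with SE 0.323, limma adjusted p = 0.0235), with nearly the same change at 20 min (2.57) and 60 min (2.55). Atp5g2 (chromosome 15, 102662864 to 102672352) went from 0.151 and 0.0960 to 0.766 and 0.413 (log2 change 2.22 with SE 0.487, limma adjusted p = 0.0432). Its paralogue Atp5g1, whose mature protein is the same subunit c of the rotor ring, had 0.130 and 0.0848 against 0.294 and 0.183 (log2 change 1.14, SE 0.440, limma adjusted p = 0.123, and 0.0340 with the block), and the third gene of the family, Atp5g3, was not analysed here. Atp5f1, subunit b of the stalk, Atp5e and Atp5j changed by 0.31, -0.13 and -0.16 log2 units, and the genotypes overlapped in each. Atp5j, coupling factor F6, had 0.0341 and 0.0473 against 0.0760 and 0.0170.

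Synthesis rates of the members did not differ detectably between genotypes. By limma 0 of 31 members had an adjusted p under 0.05, and 0 had an unadjusted p under 0.05 (0% and 0.311% of the 5794 genes tested); with labelling time as a block 0 passed as well (0% of all genes), and 0 of 37 members passed in the authors' deposited table. The median log2 change was -0.04, and 9 members were higher at both times, 8 lower at both and 14 mixed. Both knockout rates lay above both wild-type rates in 3 members, Uqcrh, Cox7a2l and Ndufs4 (all genes 8.92%), and below in 2, Ndufa8 and Ndufs7 (all genes 9.2%). The SEs were 0.389 to 0.914 log2 units, and even the Fmr1 synthesis difference of 1.26 (SE 0.404) had an adjusted p of 1 by limma.

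The ends of the synthesis range show how the labelling times disagreed. In complex I, Ndufb3 had synthesis rates of 0.204 and 1.27 against 1.05 and 1.36 (log2 change 1.23, SE 0.914), and Ndufs8 had 2.74 and 0.729 against 0.927 and 0.935 (log2 change -0.60, SE 0.706). In each of these, 1 wild-type library stood apart from the other 3 values, the 20 min one. In complex III the changes ran from -0.0043 (Uqcrb) to 0.42 (Uqcrh), and in complex IV from -0.54 (Cox7a2) to 0.35 (Cox7a2l). In complex V they ran from -0.28 (Atp5e) to 0.77 (Atp5j, 1.02 and 1.42 against 3.13 and 1.35). For the 10 genes with a called rise in degradation rate, the synthesis change ran from -0.57 (Ndufa12) to 0.72 (Atp5g2).

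**Figure D2:**
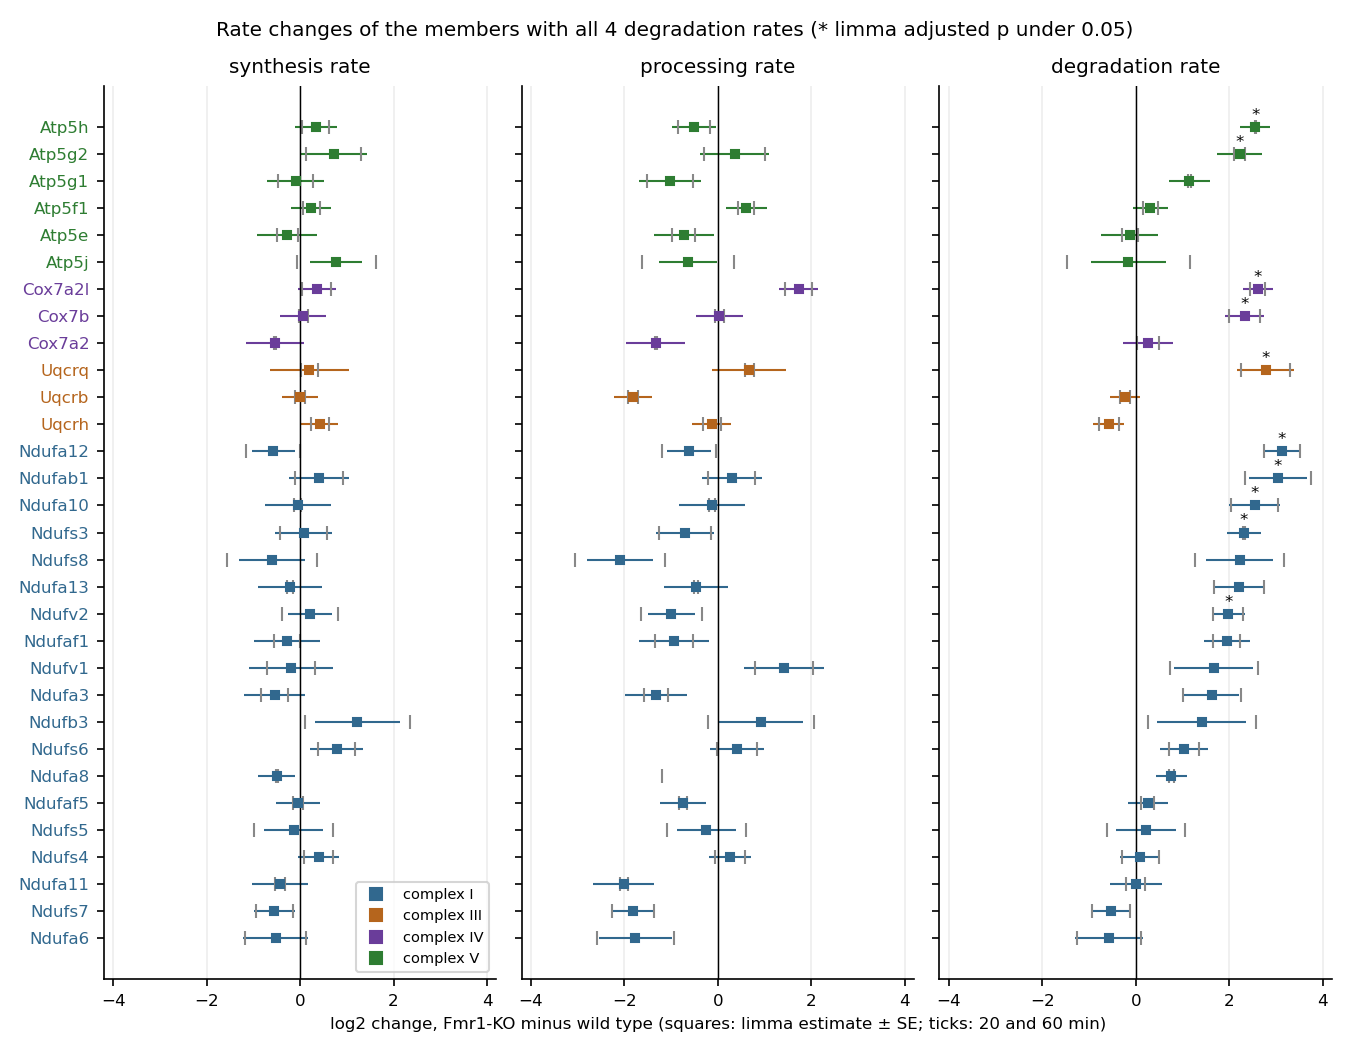
Log2 change of synthesis, processing and degradation rate (Fmr1-KO minus wild type) for the 31 members with all 4 degradation rates, as the limma estimate ± SE (squares) and the values at 20 and 60 min (ticks), coloured by complex; Ndufa8 has only a 60 min tick for processing. Synthesis changes scatter around 0, degradation changes reach 3.13 (Ndufa12), and processing changes run from -2.09 (Ndufs8) to 1.73 (Cox7a2l).

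Processing rates were lower in the knockout for most members, in about the share seen over all genes, and members passed the test only when labelling time was a block. The median log2 change of the 30 members tested was -0.56, against -0.36 for all genes. After centring the members' median was -0.22 and that of all genes -0.014. Of the members, 17 were lower at both times, 4 higher at both and 9 mixed. Of the 5082 genes tested, 2964 were lower at both, 1056 higher at both and 1062 mixed. After centring 13 of the 30 members were above 0, in place of 10. By limma 0 members passed (0% of all genes), and 5 had an unadjusted p under 0.05 (15.4% of all genes): Uqcrb, Cox7a2l, Ndufs7, Ndufa11 and Ndufs8. With labelling time as a block 9 members passed (25.6% of all genes), 7 of them lower (19.3%): Ndufa3, Ndufa6, Ndufa11, Ndufs7, Ndufs8, Uqcrb and Cox7a2. The 2 that passed as higher were Cox7a2l and Ndufv1. With the block and centring 4 passed, Cox7a2l higher and Ndufa11, Ndufs7 and Uqcrb lower (13.5% of all genes). Both knockout rates lay below both wild-type rates in 11 members (all genes 35.1%) and above in 2, Cox7a2l and Atp5f1 (all genes 11.5%). Of the 35 members in the authors' deposited table, 0 passed, as did 0 of all 5930 genes in it. The median change there was -0.51, against -0.33 for all genes.

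The most negative processing changes were in subunits of complexes I and III. Uqcrb, a small subunit near the quinone site of complex III, had processing rates of 26.9 and 21.9 against 7.12 and 6.70 (log2 change -1.81 with SE 0.408, limma adjusted p = 0.156, and 0.0122 with the block). Ndufs7, the core subunit that carries the last iron-sulfur cluster before ubiquinone, had 13.7 and 14.6 against 5.29 and 3.01 (log2 change -1.82 with SE 0.468, limma adjusted p = 0.181, and 0.0194 with the block). In both genes the libraries of a genotype lay closer to each other than to the other genotype. Ndufa11, a membrane-arm subunit, had 8.13 and 3.71 against 2.13 and 0.864 (log2 change -2.02, SE 0.655, limma adjusted p = 0.245, and 0.0102 with the block). Ndufs8 had 26.9 and 7.16 against 3.23 and 3.26 (log2 change -2.09, SE 0.70, limma adjusted p = 0.254, and 0.0392 with the block), and its high 20 min value in wild type stood apart from the other 3.

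Cox7a2l had a higher processing rate in the knockout, as it had a higher degradation rate. Its processing rate was 2.56 and 2.91 against 10.3 and 7.89 (log2 change 1.73 with SE 0.418, limma adjusted p = 0.173, and 0.0161 with the block). Its paralogue Cox7a2 had 16.2 and 7.40 against 6.51 and 2.89 (limma adjusted p = 0.387, and 0.0202 with the block). Among complex I members with all 4 processing rates the highest change was that of Ndufv1, the flavin-binding subunit, at 7.35 and 1.51 against 12.8 and 6.21 (log2 change 1.42). In complex III Uqcrq changed by 0.67, and in complex V the changes ran from -1.03 (Atp5g1) to 0.60 (Atp5f1).

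The ratio of synthesis to degradation rate, which at steady state sets the level of mature RNA, was lower in the knockout for most members. Over the 31 members with all values its median was 27.6 in wild type against knockout values of 11.0 (20 min) and 7.57 (60 min), and for all genes it was 9.35, 6.30 and 5.84. It was lower in the knockout at both times in 26 members (83.9%, against 67.5% of all genes) and higher at both in 5. Because wild type has in effect 1 value of this ratio per gene, no test was made. Among these 31 the ratio was lowest relative to wild type in Ndufa12 (17.6 against 1.18 and 1.55), Ndufs8 (19.3 against 2.72 and 2.74) and Ndufab1 (6.43 against 1.19 and 0.90). Among the same 31 it was highest relative to wild type in Uqcrh (54.7 against 107.7 and 110.8) and Atp5j (29.9 against 41.2 and 79.2). In Ndufs7 the ratio was nearly the same (33.2 against 32.7 and 33.0), as it was in Ndufa6 and Atp5f1. Ndufa7 and Ndufa5, with a single knockout value, had ratios of 3684 and 1624 at 20 min against a wild-type ratio of 17.7 in Ndufa7.

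The ratio of synthesis to processing rate, which at steady state sets the level of unspliced precursor, moved the opposite way. In 26 of 30 members it was higher in the knockout at both times, as in 3601 of 5076 genes, and in 4 lower at both (29.1% of all genes), namely Atp5f1, Cox7a2l, Ndufv1 and Uqcrq. The members had medians of 0.246 (wild type) and of 0.338 and 0.345 (knockout), against 0.144, 0.183 and 0.184 for all genes. It was highest relative to wild type in Uqcrb, at 0.139 against 0.485 and 0.488, and lowest in Ndufv1, at 0.483 against 0.169 and 0.145. Members with a called rise in degradation rate were on both sides, as Atp5h (0.241 against 0.421 and 0.451) and Cox7a2l (0.417 against 0.165 and 0.158) show.

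**Figure D3:**
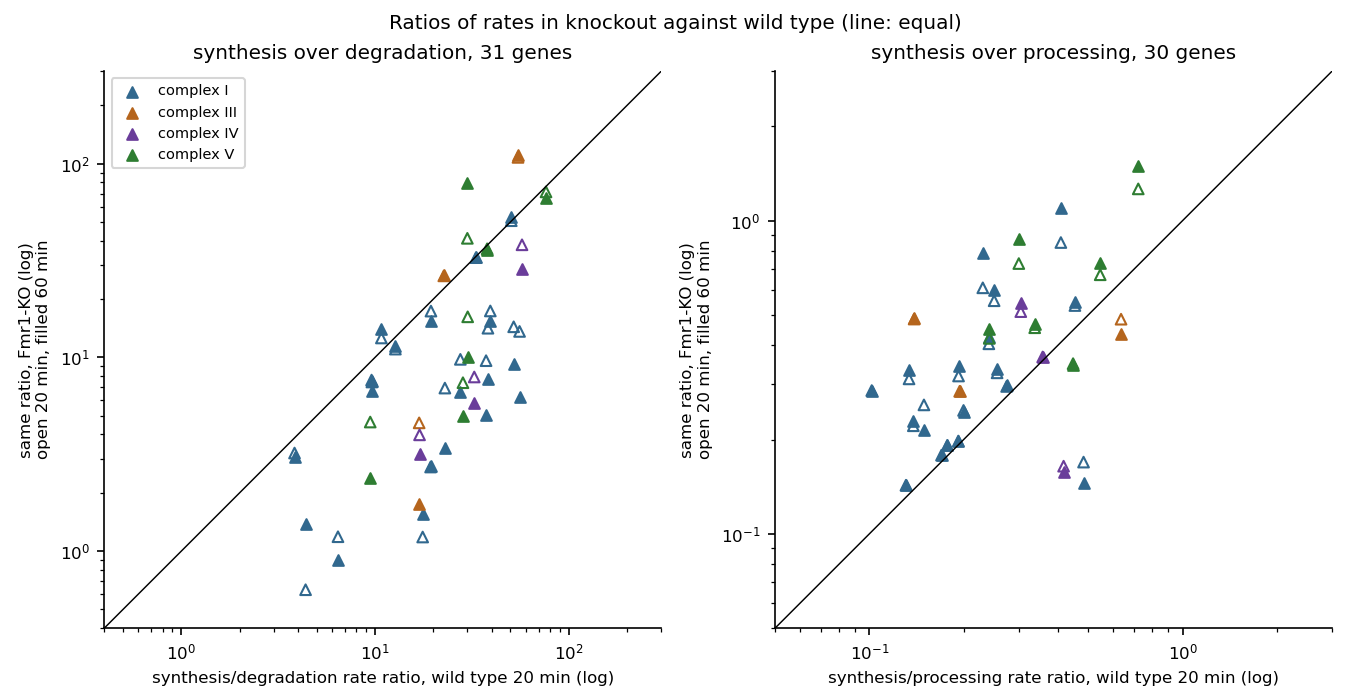
Ratio of synthesis to degradation rate (left, 31 genes) and of synthesis to processing rate (right, 30 genes) in Fmr1-KO (vertical log axis, open at 20 min, filled at 60 min) against wild type at 20 min (horizontal log axis), coloured by complex, with a line where both are equal. On the left most points lie below the line and Uqcrh and Atp5j above it; on the right most lie above the line, with Cox7a2l and Ndufv1 the farthest below.

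Transcript structure was compared with the change of degradation rate within the group. The 10 called members had a median 3′ UTR of 651 bases, against 131 bases in the 21 tested members that did not pass; with labelling time as a block the medians were 195 bases in the 15 called and 133 in the other 16. With a limit of 500 bases, which was chosen after the values were seen, 6 of 8 members with a longer 3′ UTR were called (Ndufab1, Uqcrq, Cox7a2l, Ndufa10, Cox7b and Ndufv2, but not Atp5g1 and Ndufs4), and 4 of 23 with a shorter one. Over all genes the order was the other way, with 21.5% of 4190 genes called above 500 bases and 28.1% of 1365 genes up to it. Across the 31 members the change had a Spearman rho of 0.211 with 3′ UTR length, 0.406 with transcript length and -0.122 with the GC content of the transcript; across 5555 genes the values were -0.196, -0.112 and 0.312. These are descriptions over genes that share the same 4 libraries.

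**Figure D4:**
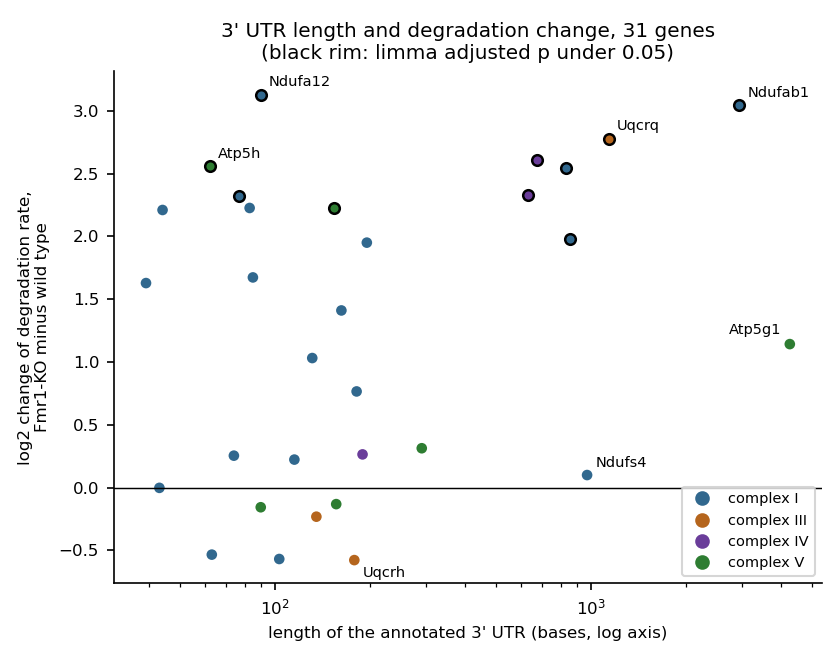
Log2 change of degradation rate (Fmr1-KO minus wild type) against the length of the annotated 3′ UTR (log axis, bases) for the 31 tested members, coloured by complex, with a black rim where the limma adjusted p was under 0.05. Of the 8 members with a 3′ UTR over 500 bases, 6 were called, and Ndufs4 and Atp5g1 were not; Ndufa12, with the largest change of these 31, has a 3′ UTR of 90 bases.

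Other genes of the pathway were read from lists of complex II, electron carriers, assembly factors, the citric acid cycle and regulators. In complex II, succinate dehydrogenase, 1 of 3 tested genes was called for degradation rate, where 23.1% of all genes were. This gene, Sdhb, the iron-sulfur subunit, went from 0.0681 and 0.0691 to 0.237 and 0.235 (log2 change 1.78, SE 0.311, limma adjusted p = 0.0286). Cytochrome c (Cycs) had 0.854 and 0.379 against 0.781 and 0.116 and did not pass (log2 change -0.92, limma adjusted p = 0.543). Of 19 assembly factors outside the symbol rule, 6 were called as higher and 1 as lower (20.5% of all genes were called as higher). Their median change was 1.38, against 0.65 for all genes. With the block 9 of the 19 passed as higher and 1 as lower (48% of all genes passed, 38.2% as higher). With centring 0 passed (1.61% of all genes). The 6 called as higher without these steps were Surf1 (log2 change 3.32), Atpaf1 (2.97), Uqcc2 (2.86), Sdhaf1 (2.85), Uqcc1 (2.65) and Cox14 (1.58). They serve complexes IV, V, III, II, III and IV. Tmem186, which acts in complex I assembly, fell from 0.538 and 0.575 to 0.160 and 0.107 (log2 change -2.09, limma adjusted p = 0.0292).

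Neighbouring parts of mitochondrial metabolism were mixed. Of 7 tested genes of pyruvate dehydrogenase and the citric acid cycle, Idh3a rose (log2 change 1.61, limma adjusted p = 0.0495) and Suclg1 fell (-2.65, limma adjusted p = 0.0297). Their median change was 0.18, against 0.65 for all genes. For this list and the regulators below, the share called over all genes was 23.1%, with 1174 of 5716 genes higher and 147 lower. Of 6 tested regulators, Polrmt, the mitochondrial RNA polymerase, rose (2.60, limma adjusted p = 0.0235), and Tfam, the factor that packages mitochondrial DNA, fell from 0.387 and 0.456 to 0.0163 and 0.0661 (log2 change -3.68, limma adjusted p = 0.0378). Gabpa, whose motif is shown above, had 0.150 and 0.219 against 0.0742 and 0.119 (log2 change -0.95, limma adjusted p = 0.169). Of 41 tested mitochondrial ribosomal protein genes, 10 were called, all higher, near the 20.5% of all genes called as higher, with a median change of 1.32 against 1.41 for the oxidative phosphorylation genes and 0.65 for all genes. With the block 22 of them passed as higher and 2 as lower (48% of all genes passed, 38.2% as higher). With centring 1 passed (1.61% of all genes). With both, 8 passed as higher and 4 as lower (36.2% of all genes passed, 13.9% as higher). No test of the difference between these groups was made.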

How the data were processed

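Rates of 4 labelled libraries were analysed, 2 per genotype out of 10 samples. Per the labels, fly and yeast RNA were added as spike-ins. The authors deposited linear rates of 0 or above, treated here as signal values, in a table named for INSPEcT per the labels; how the spike-ins entered is not given in the sources used here. The submitters' processing notes name cutadapt, Bowtie2, TopHat2, HISAT2, limma and the builds mm10, dm6 and sacCer3. The authors deposited 1 limma table per rate with log2 changes. The same deposited tables give p-values and adjusted p-values per the file headers. Read counts were not used here. The number of columns of per-sample values left unused was 0.

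Genes with all 4 rates above 0 were compared on the log2 scale without a pseudocount by limma 3.58.1 (R 4.3.3; lmFit, eBayes without a trend, two-sided, Benjamini-Hochberg over all genes tested, threshold 0.05), after a check on simulated data. Labelling times stood as replicates (60 min as replicate 1, 20 min as replicate 2). The labels pair libraries by labelling time: across genes the time differences of both genotypes had a Spearman rho of 0.652 (degradation), 0.735 (synthesis) and 0.735 (processing), and across members of 0.0278, 0.279 and 0.18. The symbol rule uses no rate, but this gene group and the lists were proposed with earlier results of these data known. Named were, for degradation, each called member; for the other rates, members with unadjusted p under 0.05; per complex and rate, the ends of the range; the wild-type extremes; and paralogues. Annotation was GENCODE M21 (GRCm38, the build of mm10), by the longest coding sequence of each gene; promoters were RefSeq. Alternatives were centring, quantile normalization, the block, the block with centring, leaving out the lowest 25 percent of levels, a pseudocount at the 10th percentile, an eBayes trend, a threshold of 0.01, the deposited tables and leaving out each library.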

Additional observations from a re-analysis of the deposited data

Results flagged for a closer look

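The degradation rate of Atp5j moved in opposite directions at the 2 labelling times, by more than 1 log2 unit each. The knockout minus wild-type difference was 1.16 at 20 min and -1.47 at 60 min, with rates of 0.0341 against 0.0760 and of 0.0473 against 0.0170. The difference between the times was not tested, since each has 1 library per genotype. Its synthesis rate differed by 1.62 at 20 min and -0.07 at 60 min, and its processing rate by 0.34 and -1.61.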

How the results depend on the processing

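All counts of calls are by limma. For degradation rate over all genes, 1321 were called as reported (1174 higher, 147 lower). The count was 92 (32 higher, 60 lower) with centring, 596 (360 higher, 236 lower) with quantile normalization, 2741 with labelling time as a replicate block, 2070 (792 higher, 1278 lower) with the block and centring, 2245 in the authors' deposited table and 0 at a threshold of 0.01. It ranged from 1 to 1112 when a library was left out. Of the members, 10 were called as reported, 0 with centring, 2 with quantile normalization and 0 at 0.01; the block gave 15, the block with centring 12, and leaving out a library 0 to 12. The members' median change, 1.41 as reported and with the block, was 0.55 with centring, with or without the block, 0.78 with quantile normalization, 2.10 without genes at or under the 25th percentile of level, 0.88 with the pseudocount and 0.90 in the authors' deposited table. It ranged from 0.83 to 1.59 when a library was left out, lowest without the 60 min wild-type library.

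For synthesis rate 0 genes were called in each setting that kept all 4 libraries, and 3 to 16 of all genes, with 0 members, when 1 was left out. The members' median, near 0 as reported, ran from -0.41 to 0.43 when a library was left out. For processing rate the block gave 1300 calls over all genes (318 higher, 982 lower) and 9 members, the block with centring 688 (363 higher, 325 lower) and 4, and leaving out a library 1 to 95 and 0. The members' median of -0.56 was -0.06 when the knockout had only its 20 min library and -0.89 when it had only its 60 min one. No called member changed sign in any setting in which it was tested. The causes were not tested. Leaving out a library leaves 1 in a genotype, whose spread is then assumed to be that of the other; with 2 libraries per genotype and unknown read depth, small changes could not be seen.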
